A study of Mus musculus with 6 samples.

Results

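The genes described here are 10 genes of the contractile apparatus of smooth and striated muscle, followed by gene symbol through a table of 55471 mouse genes. They are the muscle actins Acta1, Acta2, Actg2 and Actc1, the thin-filament proteins Tagln and Cnn1, the tropomyosins Tpm1 and Tpm2, the myosin light chain Myl9 and the smooth muscle myosin heavy chain Myh11. The list names the genes and does not use their values. All 10 were detected and all 10 passed the filter on low counts, along with 13826 genes in total.

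RNA was sequenced from primary osteoblasts, the bone-forming cells, that were freed from the parietal bone of the skull cap of mouse pups by collagenase and Dispase II digestion and kept in culture for 3 days. The libraries compared loss of the TET enzymes with an intact genotype. The WT group is 3 libraries labelled wild type, and the TCKO group is 3 libraries from triple conditional knockout mice, homozygous for floxed alleles of Tet1 (Tet1fl/fl), of Tet2 (Tet2fl/fl) and of Tet3 (Tet3fl/fl) and carrying Prx1-Cre. In these, Cre under the Prx1 promoter recombines the floxed alleles in mesenchyme of the limb bud and part of the skull. All mice were C57BL/6 and 3 days old, and no treatment was given. Whether the WT mice carried floxed alleles or Cre is not stated, and cells without Prx1-Cre activity in the culture would keep their Tet alleles.

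Muscle actins form thin filaments that slide along myosin, and each muscle type is known for its own actin, skeletal for Acta1, cardiac for Actc1, vascular smooth muscle for Acta2 and visceral smooth muscle for Actg2. Calponin, transgelin and the tropomyosins bind these filaments, and in smooth muscle phosphorylation of the light chain Myl9 starts contraction by Myh11. Cultured mesenchymal cells, osteoblasts among them, commonly assemble stress fibres that hold several of these smooth muscle proteins, and many of their genes are classical targets of SRF, a transcription factor that binds the CArG box.

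The libraries held between 8019999 and 10177214 counts, so that 3 counts correspond to between 0.299 and 0.373 CPM (counts divided by TMM-scaled library totals and multiplied by 1000000). Replicates 1 and 2 of each genotype resembled each other (chi-square over its degrees of freedom 1.69 in WT and 2.04 in TCKO, against 16.5 to 23.3 for pairs with replicate 3). The close pairs differed beyond sampling noise and stayed separate libraries, and results are also given for replicates 1 and 2 alone and for replicate 3 alone. TCKO replicate 3 showed the female pattern (4583 counts of Xist and 0 of Ddx3y) and the other 5 libraries the male pattern. Nothing in the labels says that replicates came from separate animals or cultures, so the p-values measure the spread between these libraries. Of the targeted genes, Tet1 was lower in TCKO (98, 131 and 115 counts in WT, 68, 51 and 51 in TCKO, log2 fold change -0.97, edgeR adjusted p = 0.00648), Tet3 was higher (0.51, 0.00745), and Tet2 did not pass the threshold (-0.14, 0.545). Counts over whole genes include exons outside the floxed parts and do not measure recombination.

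Of the 10 genes, 4 were higher in TCKO than in WT (Acta1, Cnn1, Tpm1 and Tagln), 1 was lower (Actg2) and 5 did not pass an adjusted p of 0.05 in edgeR's quasi-likelihood test. Among all tested genes 9.07% were higher and 8.63% lower. Acta1, Cnn1 and Tpm1 were also over 2-fold higher and none was over 2-fold lower, against 3.16% and 3.19% of all tested genes (6.35% in either direction). In CPM, all TCKO libraries lay above all WT libraries for 5 genes (the 4 named and Tpm2) and below them for 1 (Actg2), against 19.4% and 18.9% of all tested genes. The median log2 fold change of the 10 genes was 0.35, against 0.00 for all tested genes, whose quartiles were -0.22 and 0.21. With replicates 1 and 2 of each genotype summed into 1 sample (2 samples against 2), 386 genes (2.79%) passed in place of 2447 (17.7%), and of the 10 genes only Cnn1 and Tpm1 did. Leaving out 1 library of replicates 1 or 2 lowered the share of all tested genes that passed to between 8.34% and 9.71%. The share rose to 22.6% without WT replicate 3, 20.8% without TCKO replicate 3 and 23.5% with the replicate number as a block. In bulk libraries such as these, fewer cells of a type and less RNA per cell cannot be told apart.

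**Figure D1:**
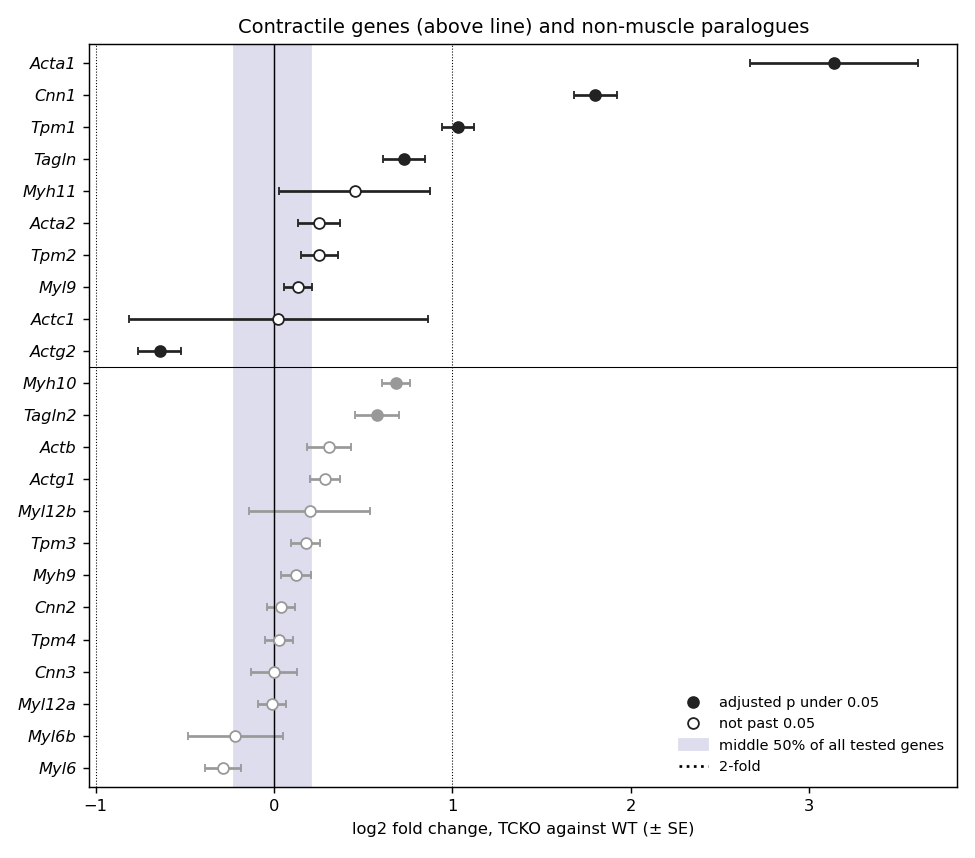
log2 fold change of TCKO against WT with its standard error for the 10 contractile genes (above the line) and for 13 tested non-muscle paralogues (below it), from edgeR over 3 libraries per genotype. Filled points passed an adjusted p of 0.05, the band spans the quartiles of all tested genes (-0.22 to 0.21), and Acta1 at 3.14 and Cnn1 at 1.80 lie farthest to the right while Actg2 at -0.64 is the only contractile gene to the left of the band.

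The muscle actins are encoded by separate genes whose coding sequences are alike, so the first 30 coding bases of each are shown to make visible how reads can tell them apart. Capitals mark the 15 positions at which the 4 genes are not all identical (coding bases 1 to 30 of a GENCODE M21 transcript of each gene, GRCm38, minus strand, at chr8:123893668-123893697, chr19:34252524-34252553, chr6:83527412-83527441 and chr2:114052002-114052031 in the order shown).
Acta1: atgtgCgaCgaAgaCGAGaCcAcCGCTCtT
Acta2: atgtgTgaAgaGgaAGACaGcAcAGCCCtG
Actg2: atgtgTgaAgaAgaGACCaCcGcCCTTGtG
Actc1: atgtgTgaCgaCgaGGAGaCcAcCGCTTtG

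Over the whole coding sequence the 6 pairs of muscle actins were between 82.6% and 86.3% identical, and the longest run shared by any pair was 38 bases. Every stretch of 75 bases in the transcripts of Acta2, Actg2 and Actc1 was absent from the transcripts of other genes. In Acta1, 6 of 1521 such stretches (0.394%) also occurred in another gene, and none did at 150 bases. A read of these lengths therefore named its actin gene nearly everywhere in these transcripts.

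Acta1, the skeletal muscle alpha-actin (chr8:123891769-123894751, minus strand), had the largest difference among the 10 genes. WT replicates 1 to 3 held 39, 34 and 92 counts, and TCKO replicates 1 to 3 held 585, 573 and 263. All TCKO libraries lay above all WT libraries, and the replicate 3 libraries were the nearest to each other, the WT one being the highest of its group and the TCKO one the lowest. Levels averaged 6.42 ± 4.15 CPM in WT against 55.8 ± 22.9 CPM in TCKO (SD, n = 3), and the fitted log2 fold change was 3.14 ± 0.47 (SE, edgeR adjusted p = 0.00416). Replicates 1 and 2 alone gave a log2 difference of 4.09, and replicate 3 alone gave 1.40. Without WT replicate 3 the fitted log2 fold change was 3.79, and with replicates 1 and 2 summed it was 2.80 with an adjusted p of 0.0870.

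Actg2, the smooth muscle gamma-actin (chr6:83512905-83536265, minus strand), went the other way. The WT libraries held 676, 815 and 862 counts, the TCKO libraries 494, 503 and 470. Every TCKO library was below every WT library. From 89.2 ± 13.2 CPM in WT the level fell to 57.2 ± 4.95 CPM in TCKO (SD, n = 3), with a fitted log2 fold change at -0.64 ± 0.12 (SE, edgeR adjusted p = 0.00998). The log2 difference was -0.46 in replicates 1 and 2 alone and -0.99 in replicate 3 alone. Summing replicates 1 and 2 gave -0.73, which did not pass (adjusted p = 0.0888).

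Acta2, the smooth muscle alpha-actin that is widely used as a marker of smooth muscle cells and myofibroblasts (chr19:34241090-34255590, minus strand), was the most abundant of the 10 per summed exon length. Its counts across the WT libraries were 16680, 19124 and 14104, and across the TCKO libraries 20683, 19524 and 17308. The groups overlapped in CPM, because TCKO replicate 3 (1941 CPM) lay below WT replicate 1 (2020 CPM). Averages of 1879 ± 157 CPM in WT against 2243 ± 263 CPM in TCKO (SD, n = 3) came with a fitted log2 fold change at 0.26 ± 0.12, which did not pass (edgeR adjusted p = 0.179). The value was 0.35 and passed without TCKO replicate 3 (adjusted p = 0.0244), and it was 0.29 in replicates 1 and 2 alone and 0.18 in replicate 3 alone. With a batch term for replicate 3 it was 0.25 and passed (adjusted p = 0.0188). With replicates 1 and 2 summed it did not pass with the block (adjusted p = 0.443) or without it (adjusted p = 0.565).

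Actc1, the cardiac muscle alpha-actin (chr2:114047282-114053548, minus strand), was near the limit of detection. The WT libraries held 8, 5 and 35 counts, the TCKO libraries 18, 26 and 4. WT replicate 3 was the highest library and TCKO replicate 3 the lowest, so the groups overlapped fully. Both groups averaged about the same, 1.90 ± 2.04 CPM for WT against 1.91 ± 1.40 CPM for TCKO (SD, n = 3), with a fitted log2 fold change at 0.02 ± 0.84 (edgeR adjusted p = 0.989). Replicates 1 and 2 alone gave a log2 difference of 1.85 and replicate 3 alone -3.24, which made Actc1 the only 1 of the 10 genes with opposite signs in the 2 sets.

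The actin genes were set against each other per summed exon length, as RPKM (CPM per kilobase of exon). The muscle actins made up 36.0%, 35.3% and 34.3% of the summed RPKM of the 6 actin genes in WT and 37.6%, 38.2% and 28.0% in TCKO. The remainder was the cytoplasmic actins Actb and Actg1, and TCKO replicate 3 was the only library with a muscle actin share outside 34.3% to 38.2%. Within the muscle actins, Acta1 took 0.315%, 0.239% and 0.849% in WT and 3.76%, 3.89% and 2.05% in TCKO. Actg2 took 5.39%, 5.65% and 7.84% in WT and 3.13%, 3.36% and 3.61% in TCKO. The Acta1 share was thus higher, and the Actg2 share lower, in every TCKO library than in any WT library, while Acta2 held most of the muscle actin level in all 6. These shares are descriptions and carry no test. Stretches that Actb and Actg1 share with other genes were not searched for, so reads of these genes lost in counting would go unseen.

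**Figure D2:**
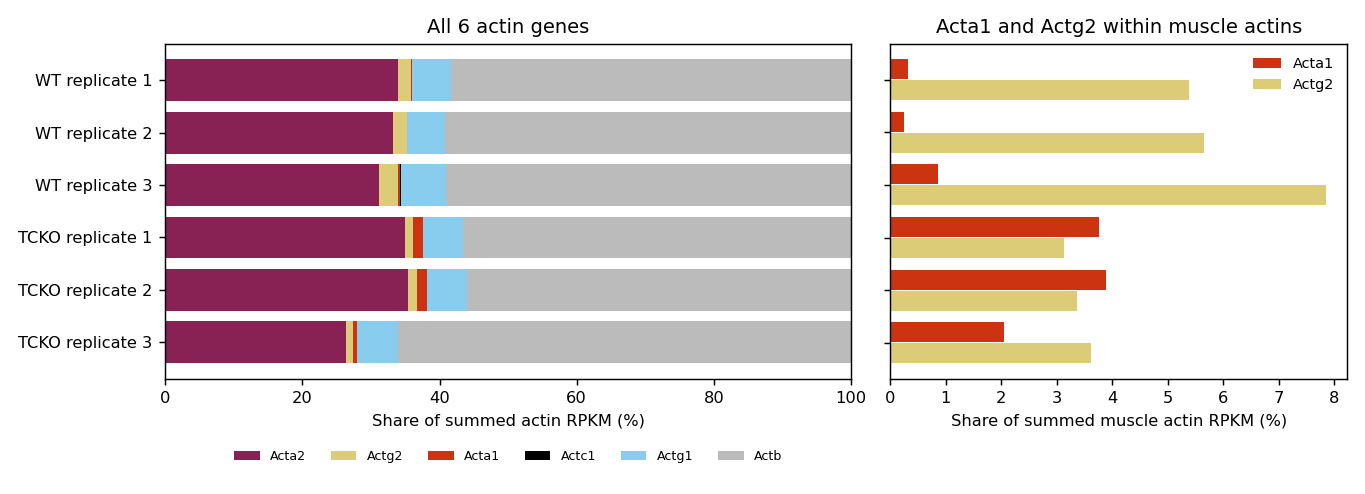
Left, share of the summed RPKM of the 6 actin genes (%, horizontal axis) in each of the 6 libraries, by gene. Right, the shares of Acta1 and Actg2 in the summed RPKM of the 4 muscle actins (%), where Acta1 lies between 0.239% and 0.849% in WT and between 2.05% and 3.89% in TCKO.

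Cnn1, calponin 1, an actin-binding protein of smooth muscle that restrains myosin ATPase (chr9:22099216-22109630, plus strand), was higher in every TCKO library. WT libraries held 684, 797 and 874 counts and TCKO libraries 2667, 2684 and 2641. The lowest TCKO library (296 CPM) stood far above the highest WT library (106 CPM). On average Cnn1 stood at 89.4 ± 14.4 CPM in WT against 311 ± 19.7 CPM in TCKO (SD, n = 3), with a fitted log2 fold change at 1.80 ± 0.12 (SE, edgeR adjusted p = 0.00013). The log2 difference was 1.98 for replicates 1 and 2 and 1.48 for replicate 3. Cnn1 passed with replicates 1 and 2 summed as well (adjusted p = 0.0153).

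Tagln, transgelin or SM22-alpha, which cross-links actin and is an early marker of smooth muscle differentiation (chr9:45929619-45936058, minus strand), was also higher in TCKO. Counts were 357, 403 and 358 across the WT libraries, and 554, 515 and 740 across the TCKO libraries. The WT libraries lay close together, and each TCKO library was above them, with TCKO replicate 3 the highest. Levels averaged 42.3 ± 1.79 CPM in WT against 70.1 ± 11.2 CPM in TCKO (SD, n = 3), with a fitted log2 fold change at 0.73 ± 0.12 (SE, edgeR adjusted p = 0.00553). Replicates 1 and 2 alone differed by 0.61 and replicate 3 by 0.94, and summing replicates 1 and 2 gave 0.79, which did not pass (adjusted p = 0.0738).

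The counts of Tagln covered only part of its transcripts. Exons of 2 genes on the opposite strand overlapped 67.9% of its exon length, Gm48529 with 1241 bp and Pcsk7 with 108 bp. In the deposited table, all 438 genes whose exons were wholly overlapped on the opposite strand only had 0 counts in every library, against 57.6% of the 43752 genes with no exon overlap, so reads in such overlaps were evidently assigned to neither gene. Gm48529 itself held 36, 43 and 105 counts across WT and 34, 41 and 191 across TCKO libraries. The other 9 genes had no exon overlap with another gene. Because the same exon length was uncounted in all libraries, a comparison of Tagln between genotypes uses the remaining 639 bp, while its level per full length is too low.

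Tpm1, the alpha-tropomyosin gene, whose isoforms serve muscle and non-muscle filaments (chr9:67022590-67049406, minus strand), was higher in TCKO by about the 2-fold limit. The WT libraries held 8659, 10541 and 9083 counts, the TCKO libraries 19447, 18631 and 17927. Each group was narrow and the groups were far apart. Averages were 1067 ± 29.4 CPM for WT against 2182 ± 156 CPM for TCKO (SD, n = 3), with a fitted log2 fold change at 1.03 ± 0.09 (SE, edgeR adjusted p = 0.000443). In replicates 1 and 2 alone the log2 difference was 1.11, in replicate 3 alone 0.87. Without TCKO replicate 2, or with replicates 1 and 2 summed, the fitted value was 0.99, below 2-fold but past the threshold (adjusted p = 0.00396 and 0.0432). The counts add up the isoforms of the gene and do not separate muscle from non-muscle forms.

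Tpm2, the beta-tropomyosin gene (chr4:43514711-43523765, minus strand), had 3256, 3675 and 3651 counts across the WT libraries, and 3892, 3713 and 4725 across the TCKO libraries. In CPM the groups did not overlap, but only narrowly, at 443 CPM in WT replicate 3 and 444 CPM in TCKO replicate 1. Levels averaged 401 ± 38.4 CPM in WT against 479 ± 45.3 CPM in TCKO (SD, n = 3), and the log2 fold change of 0.25 ± 0.10 did not pass (edgeR adjusted p = 0.131). With the replicate number as a block it passed (0.25, adjusted p = 0.0431). It also passed with a batch term for replicate 3 (0.25, adjusted p = 0.0118) and without WT replicate 3 (0.33, adjusted p = 0.0498). With replicates 1 and 2 summed it did not pass with the block (adjusted p = 0.252) or without it (adjusted p = 0.450). Both sets gave nearly the same value, 0.25 for replicates 1 and 2 and 0.26 for replicate 3.

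Myl9, the regulatory light chain of smooth muscle myosin (chr2:156775420-156781658, plus strand), did not differ past the threshold. The WT libraries held 4821, 5496 and 4306 counts, the TCKO libraries 5108, 4809 and 5648. The groups overlapped, averaging 551 ± 31.0 CPM for WT against 605 ± 26.0 CPM for TCKO (SD, n = 3). The log2 fold change was 0.13 ± 0.08 (SE, edgeR adjusted p = 0.293), with 0.06 in replicates 1 and 2 alone and 0.28 in replicate 3 alone.

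Myh11, the heavy chain that defines mature smooth muscle cells (chr16:14194535-14291372, minus strand), was at a low level in every library. WT libraries held 91, 105 and 24 counts and TCKO libraries 110, 104 and 73. WT replicate 3 was the lowest library, and the other 5 lay between 8.19 and 12.9 CPM, so the groups overlapped. Levels averaged 8.14 ± 4.53 CPM in WT against 11.2 ± 2.64 CPM in TCKO (SD, n = 3), with a fitted log2 fold change at 0.45 ± 0.42 (edgeR adjusted p = 0.510). In replicates 1 and 2 alone the log2 difference was 0.25, in replicate 3 alone 1.49.

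**Figure D3:**
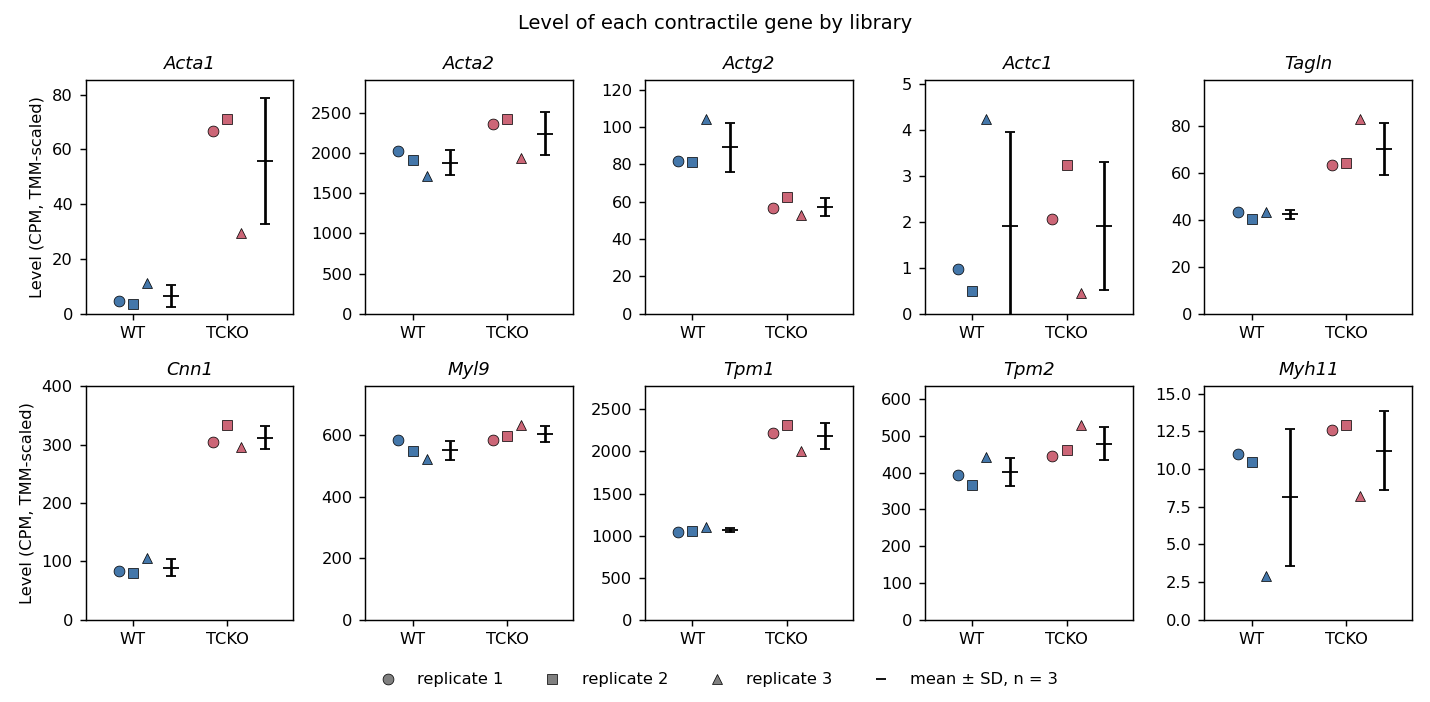
Level of each of the 10 genes in CPM (TMM-scaled, linear axes from 0) in the 3 WT and 3 TCKO libraries, with the mean and SD beside each group (the lower bar of Actc1 in WT ends at the axis). Marker shape gives the replicate number, and Acta1, Cnn1, Tpm1 and Tagln show separate groups with TCKO higher, Actg2 separate groups with TCKO lower, and Actc1 a WT replicate 3 library above all others.

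**Figure D4:**
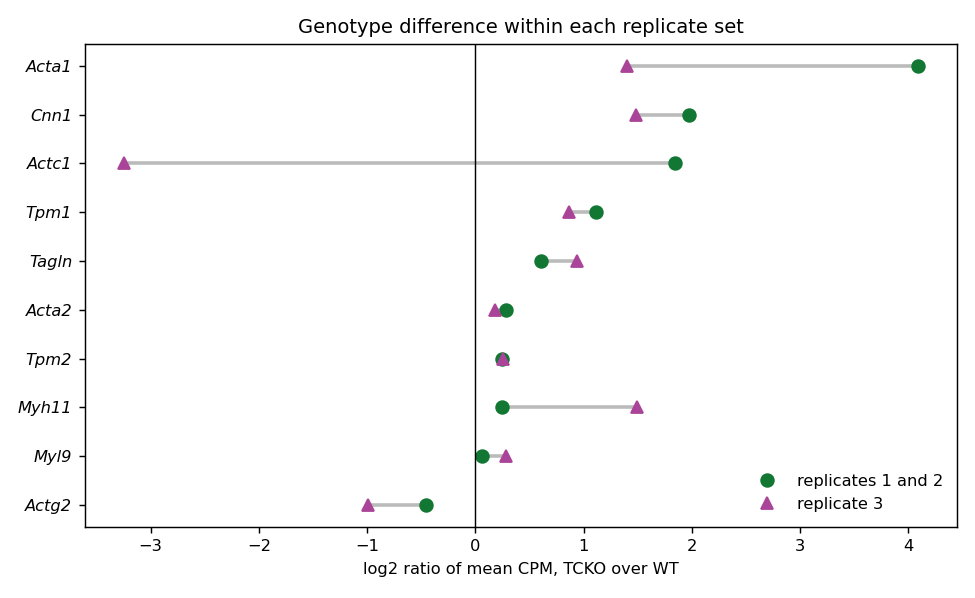
log2 ratio of mean CPM, TCKO over WT, within replicates 1 and 2 (2 libraries per genotype) and within replicate 3 (1 library per genotype) for each of the 10 genes. For 9 genes both points lie on the same side of 0, and Actc1 runs from 1.85 to -3.24.

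Per summed exon length the 10 genes covered a wide range. That length adds up all annotated exons of a gene (6485 bp for Tpm1), so a gene whose expressed transcripts are shorter is placed too low. In WT the order by mean RPKM was Acta2 (856 ± 71.5), Myl9 (475 ± 26.6), Tpm1 (165 ± 4.54), Tpm2 (138 ± 13.2), Actg2 (57.3 ± 8.49), Cnn1 (32.7 ± 5.26), Tagln (21.3 ± 0.90), Acta1 (4.18, between 2.21 and 7.26), Actc1 (1.18 ± 1.26) and Myh11 (1.07 ± 0.60), ± SD over n = 3. Among neighbours in that order, only Acta1 with Actc1 and Actc1 with Myh11 had overlapping libraries. In TCKO the order was the same for the top 4 genes, with Tpm1 at 337 ± 24.0 RPKM. Below them Cnn1 (114 ± 7.18) stood above Actg2 (36.8 ± 3.18), and Acta1 (36.4 ± 14.9) overlapped both Actg2 and Tagln (35.3 ± 5.63). Counted over the 639 bp that no other gene overlaps, Tagln would stand at 66.2 ± 2.80 RPKM in WT and 110 ± 17.5 RPKM in TCKO. For scale, the cytoplasmic actins Actb and Actg1 stood at 1535 ± 55.6 and 154 ± 9.90 RPKM in WT.

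Some of the 10 genes followed each other across the 6 libraries. Pearson's r of log2 CPM was 0.99 between Cnn1 and Tpm1, 0.97 between Cnn1 and Acta1, and 0.92 between Cnn1 and Tagln. It was -0.85 between Cnn1 and Actg2 and 0.21 between Cnn1 and Actc1. These values are descriptions over 6 libraries, which share the genotype grouping and the offset of replicate 3. Of 9262 genes with a mean of at least 100 counts, the pattern of Acta1 was most like those of Col5a3 (r = 0.999), Cct5, Ccnyl1, Fbln2 and Hspd1-ps3. Cnn1 was most like Hnrnpf (r = 0.999), Furin, Nsd2, Bcl2l11 and Fhl3, and Tpm1 most like Atp2a2 (r = 0.9998), Gm21399, Cblb, Prkg2 and Gzme. Tagln was most like Spred3 (r = 0.999), Csnk1e, Zswim4, Smarca4 and Fez2. Actg2 was most like Cxcl14 (r = 0.995), Pde8a, Copz2, Comp and Gmppa, and Acta2 most like Lsp1 (r = 0.996), Trak1, Carhsp1, Rab35 and Zfp658. Many other genes were nearly as close. An r above 0.95 was reached by 289 genes with Acta1, 461 with Cnn1 and 425 with Tpm1. It was reached by 233 genes with Tagln, 97 with Actg2 and 105 with Acta2.

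Promoter windows from RefSeq (GRCm38.p6, 250 bases before to 50 bases after a gene's start) were at hand for 7 of the 10 genes: Acta1, Acta2, Actc1, Cnn1, Myl9, Tpm1 and Tpm2. They were searched on both strands for the CArG box, the site that SRF binds, in its strict form only (CC, 6 bases of A or T, GG). Of the 7 windows 3 held 1 each, against 1.63% of all 32851 windows. The boxes are shown in capitals with 10 bases on either side, on the strand of the gene, because they are the letters through which SRF is known to act on muscle genes. They lie at chr8:123894829-123894858 (minus strand), chr2:114052903-114052932 (minus strand) and chr2:156775293-156775322 (plus strand) in the order shown.
Acta1: tgcccgacacCCAAATATGGcttgggaagg
Actc1: gctaaggcgaCCAAATAAGGcaaggtggca
Myl9: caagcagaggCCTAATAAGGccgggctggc

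The box began 73 bases before the start in Acta1, 47 in Actc1 and 161 in Myl9. Acta1 was higher in TCKO, whereas Actc1 and Myl9 did not pass the threshold. Cnn1 and Tpm1, also higher in TCKO, had no match to these letters in their windows, nor did Acta2 and Tpm2. A match in these letters is a description of the window only. Boxes that depart from the strict form, or that lie outside the windows, were not searched for, so no match does not mean no SRF site.

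The non-muscle paralogues of the 10 genes serve the cytoskeleton of most cells. Of 15 listed, 13 were tested, 2 were higher in TCKO, none was lower, and the median log2 fold change was 0.12. Myh10, non-muscle myosin heavy chain IIB, held 1610, 1891 and 1383 counts across WT and 2629, 2389 and 2582 across TCKO libraries (0.69 ± 0.08, edgeR adjusted p = 0.00134). Tagln2, the widely expressed transgelin, held 1654, 1987 and 2226 counts across WT and 2944, 2722 and 2876 across TCKO libraries (0.58 ± 0.12, edgeR adjusted p = 0.0174). The call for Tagln2 was lost without any one of WT replicates 1 and 2 and TCKO replicates 1 and 2, each of which left 1 gene called higher.

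Values for the calponin, tropomyosin and actin paralogues did not pass the threshold. Next to Cnn1 at 1.80, the log2 fold changes of Cnn2 and Cnn3 were 0.04 ± 0.08 and 0.00 ± 0.13, and next to Tpm1 at 1.03 those of Tpm3 and Tpm4 were 0.18 ± 0.08 and 0.03 ± 0.08. Actb stood at 0.31 ± 0.12 (edgeR adjusted p = 0.125) and Actg1 at 0.29 ± 0.09 (adjusted p = 0.0551), and Actg1 passed with the replicate block (adjusted p = 0.0260) and without WT replicate 3, but not with the block once replicates 1 and 2 were summed (adjusted p = 0.209). Myh9 (0.12), Myl12a (-0.01), Myl12b (0.20), Myl6b (-0.22) and Myl6 (-0.29) did not pass, except Myl6 without TCKO replicate 3. Tagln3 and Myh14, with at most 6 counts in a library, were not tested. Myl12b had between 17 and 41 counts, and a further row of the same symbol in the table was at 0. Exons or stretches that these paralogues share with other genes were not searched for, so reads of them lost in counting would go unseen.

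Other genes of the smooth muscle contractile apparatus moved in both directions. Of 24 listed, 21 were tested, 5 were higher and 4 lower in TCKO, and their median log2 fold change was 0.16. Higher were Itga7, the laminin-binding integrin alpha7 of muscle (42, 57 and 33 counts in WT, 149, 157 and 100 in TCKO, log2 fold change 1.68 ± 0.24), and Cap2, an actin-monomer binding protein (1.41 ± 0.32). Tns1, the focal adhesion protein tensin 1 (0.73 ± 0.10), Nexn, the actin-binding protein nexilin (0.59 ± 0.10), and Lmod1, the leiomodin of smooth muscle (0.36 ± 0.09), were higher as well. Among the lower genes were Mylk, the kinase that phosphorylates Myl9 (208, 242 and 142 counts in WT, 66, 79 and 38 in TCKO, -1.63 ± 0.28), and Ppp1r12b, a targeting subunit of myosin phosphatase (-0.67 ± 0.12). Smtn, smoothelin (-0.64 ± 0.15), was also lower, a call lost without TCKO replicate 1 (adjusted p = 0.0755) or TCKO replicate 2. The edgeR adjusted p-values of these named genes lay between 0.00259 for Tns1 and 0.0353 for Lmod1. Cald1, caldesmon, was abundant and differed by -0.06 ± 0.12 (edgeR adjusted p = 0.767), and Des, desmin, had between 21 and 47 counts (0.54 ± 0.32, adjusted p = 0.285). Without WT replicate 1, WT replicate 2 or TCKO replicate 1, 3 of these genes were higher, Cap2 and Lmod1 losing their calls, and with replicates 1 and 2 summed none passed in either direction.

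SRF and its cofactors gave no call. Of 11 listed genes 8 were tested, none passed and the median log2 fold change was 0.12. Srf held 661, 777 and 660 counts across WT and 761, 672 and 827 across TCKO libraries (0.15 ± 0.07, edgeR adjusted p = 0.197). The values for its actin-regulated cofactors Mrtfa and Mrtfb were 0.07 ± 0.12 (adjusted p = 0.745) and -0.07 ± 0.13 (adjusted p = 0.752). Myocd, the cofactor myocardin that is restricted to heart and smooth muscle, held 5, 15 and 14 counts across WT and 0, 2 and 10 across TCKO libraries and fell under the filter. Of the 25 listed genes of actin polymerisation and focal adhesion that are known SRF targets, all were tested, 11 were higher and 4 lower, with a median of 0.27.

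Among the higher targets, the largest differences were those of Filip1l, a filamin-interacting protein (483, 623 and 617 counts in WT, 1378, 1283 and 1465 in TCKO, 1.30 ± 0.10, edgeR adjusted p = 0.000228), and Cotl1, coactosin-like protein (1.05 ± 0.14, adjusted p = 0.00224). Flnc, which encodes a filamin that cross-links actin, was at 0.65 ± 0.15 (edgeR adjusted p = 0.0207). Lower were Ablim1, an actin-binding LIM protein (1052, 1218 and 871 counts in WT, 508, 508 and 431 in TCKO, -1.06 ± 0.12, edgeR adjusted p = 0.00114), the caveolar protein gene Cavin3 (-0.66), the talin gene Tln2 (-0.57) and the LIM-only gene Fhl2 (-0.43). The number higher was 3 without WT replicate 1 or WT replicate 2, 5 without TCKO replicate 1 and 7 without TCKO replicate 2, and it was 1 with replicates 1 and 2 summed.

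Genes that mark striated muscle, whose actins are Acta1 and Actc1, had few counts. Of 44 genes of the striated sarcomere, 6 were at 0 in every library (Myh4, Mybpc3, Tnnc2, Myl2, Myoz3 and Myl7), and 15 in all had at most 3 counts in any library. The 11 tested genes gave no call (median -0.13), and the summed level of the list was 33.1 to 69.0 CPM in WT and 30.5 to 48.3 CPM in TCKO. The highest sum was that of WT replicate 3 and the lowest that of TCKO replicate 3, which were also the highest and lowest libraries for Actc1. For example, Myh3, the embryonic myosin heavy chain, chosen after its values were seen, held 25, 31 and 82 counts across WT and 56, 61 and 6 across TCKO libraries. Without TCKO replicate 3 there was 1 gene lower.

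Acta1 was likewise highest in replicate 3 among the WT libraries (11.2 CPM) and lowest in replicate 3 among the TCKO libraries (29.5 CPM), although its groups did not overlap. The part of muscle cells in the levels of Acta1 and Actc1 was not tested. Of 12 myogenic regulators, Myf5, Myf6 and Pax7 were at 0 in every library, Myod1 held 2, 3 and 10 counts across WT and 5, 3 and 0 across TCKO libraries, and Myog had 2, 7 and 20 in WT and 8, 10 and 0 in TCKO. Of the 5 tested regulators, Six4 was higher (0.57 ± 0.14, edgeR adjusted p = 0.0259) and Mef2c (-0.68 ± 0.14, adjusted p = 0.0135) and Mef2a (-0.36 ± 0.09, adjusted p = 0.0335) were lower. All 3 are also expressed outside muscle, and each call was lost when single libraries were left out, Six4 without WT replicate 2, TCKO replicate 1 or TCKO replicate 2, Mef2c without WT replicate 1, TCKO replicate 1 or TCKO replicate 2, and Mef2a without any one of replicates 1 and 2. Of 21 other skeletal muscle markers, Ckmt2 and Pvalb were at 0, Ckm had at most 2 counts, and the list summed to 35.1 to 42.7 CPM in WT and 41.9 to 52.8 CPM in TCKO. Of its 4 tested genes Cav3, caveolin 3, was lower (28, 33 and 47 counts in WT, 16, 10 and 3 in TCKO, -1.85 ± 0.49, edgeR adjusted p = 0.0376), a call lost without WT replicate 1, 2 or 3 or TCKO replicate 2, and without WT replicate 3 there were 2 genes higher. With the replicate block 1 of the 4 was higher. By mean level, the largest parts of the summed level of these markers were Dmd (17.77 CPM in WT, 24.45 CPM in TCKO) and Eno3 (7.06 CPM in WT, 10.4 CPM in TCKO). Neither passed with all 6 libraries and no block (edgeR adjusted p = 0.303 and 0.0580).

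TGF-beta signalling is known to act on contractile genes. Of 20 genes of the TGF-beta response, 4 were higher and 3 lower, with a median of 0.06. The ligand genes Tgfb1 (204, 229 and 223 counts in WT, 345, 312 and 398 in TCKO, 0.72 ± 0.10, edgeR adjusted p = 0.00318) and Tgfb2 (0.47) were higher, as were Skil, a feedback inhibitor (0.52), and Col4a1, a basement membrane collagen (0.49). The receptor gene Tgfbr2 was lower (4967, 6206 and 3529 counts in WT, 2297, 1972 and 1568 in TCKO, -1.27 ± 0.19, edgeR adjusted p = 0.00382), with the transcription factor gene Snai2 (-0.84) and the latent TGF-beta binding protein gene Ltbp2 (-1.54). With the replicate block 7 were lower, without WT replicate 3 6 were, and without WT replicate 2 2 were higher. With replicates 1 and 2 summed, 3 were lower with the block and 1 without it.

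**Figure D5:**
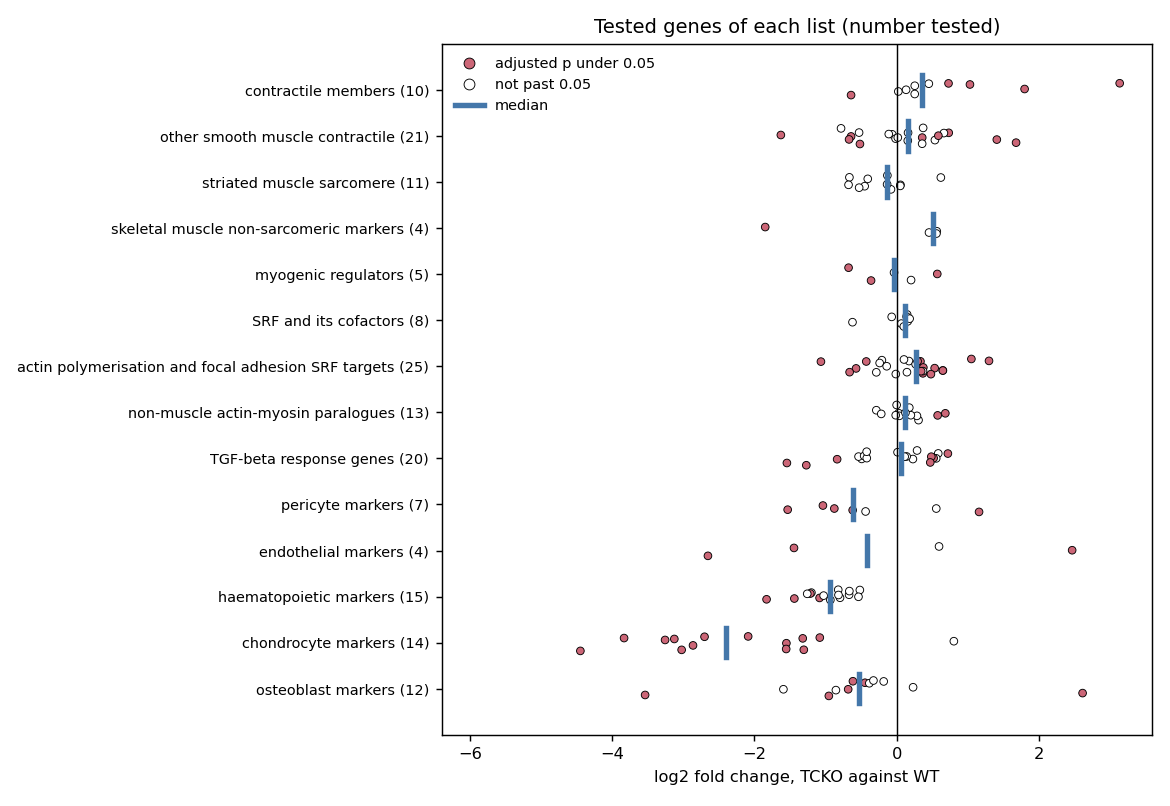
log2 fold change of TCKO against WT for every tested gene of the 10 contractile genes and of 13 other lists (number tested in brackets), with the median of each list as a bar and genes past an adjusted p of 0.05 filled. The contractile genes have their median at 0.35, the chondrocyte markers at -2.40.

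Some genes listed as markers of other cells that the cultures could hold also differed between the groups. Which cells these transcripts came from was not tested. Of 11 pericyte markers, which share a lineage with vascular smooth muscle, 7 were tested, Mcam was higher (1.16), and Anpep (-1.53), Cspg4 (-1.04), Pdgfrb (-0.88) and Notch3 (-0.62) were lower. Their median was -0.62 and their summed level 785 to 875 CPM in WT and 469 to 487 CPM in TCKO. Most of that sum was Pdgfrb (mean 454 CPM in WT, 247 CPM in TCKO) and Cspg4 (183 CPM in WT, 89.1 CPM in TCKO). The defining marker Rgs5 had between 34 and 82 counts (-0.44, edgeR adjusted p = 0.362), Kcnj8 had at most 6 and Higd1b was at 0. The number lower was 2 without WT replicate 1 or WT replicate 2, and 1 without TCKO replicate 1 or TCKO replicate 2. The part of these cells in the contractile gene differences was not tested.

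Of 13 endothelial markers 4 were tested. Eng (-1.44) and Erg (-2.65) were lower and Esam was higher (2.47, a call lost without WT replicate 1 or WT replicate 2). Pecam1 had between 1 and 7 counts and Cdh5 between 2 and 7, and neither was tested. The list summed to 238 to 251 CPM in WT and 84.8 to 115 CPM in TCKO, with a median of -0.42, and nearly all of the sum was Eng (235 ± 5.47 CPM for WT against 86.5 ± 15.6 CPM for TCKO, SD, n = 3). Of 17 haematopoietic markers 15 were tested and 4 were lower, Spi1 (-1.83), Adgre1 (-1.44), Csf1r (-1.21) and Itgam (-1.08), with a median of -0.93 and sums of 440 to 860 CPM in WT and 177 to 632 CPM in TCKO. Most of these sums was Lyz2 (mean 512 CPM in WT, 358 CPM in TCKO), which did not pass (edgeR adjusted p = 0.482). With the replicate block 15 were lower, without WT replicate 3 7 were, without TCKO replicate 2 2 were, and without WT replicate 1, WT replicate 2 or TCKO replicate 1 it was 1. With replicates 1 and 2 summed, 5 were lower with the block and none without it. Ptprc, the pan-leukocyte marker, had between 8 and 40 counts (-1.20, edgeR adjusted p = 0.0755) and passed with the replicate block (adjusted p = 0.0215) but not with the block on the summed replicates (adjusted p = 0.109).

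The labelled cell type was checked against 19 osteoblast markers. Col1a1, the collagen I gene, had between 101033 and 223459 counts and Runx2, the osteoblast transcription factor gene, between 555 and 962, whereas Mepe was at 0 and Bglap, Bglap2, Dmp1 and Ifitm5 had at most 5 counts in any library. Stretches that Bglap and Bglap2 share with each other or with other genes were not searched for, so their reads lost in counting would go unseen. Of 12 tested markers 5 were lower and 1 was higher (median -0.53). Among the lower genes were Alpl (-3.54), Sparc (-0.95), Col1a1 (-0.61) and Runx2 (-0.45), and Spp1 was higher (2.62). Without TCKO replicate 3, 8 were lower, and with replicates 1 and 2 summed none was. The call for Col1a1 was lost without any one of replicates 1 and 2 of either genotype, omissions that also lowered the share of all tested genes passing. Of 14 tested chondrocyte markers 13 were lower, among them Cnmd (-4.45), Col9a2 (-3.83), Col9a1 (-3.26), Col2a1 (-3.13) and Sox9 (-1.08), with sums of 6675 to 8566 CPM in WT and 803 to 1092 CPM in TCKO. Their part, too, in the contractile gene differences was not tested.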

How the data were processed

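Poly(A) RNA libraries were made by the authors with the NEBNext Ultra II Directional kit and aligned to GRCm38 (Ensembl release 99) with STAR 2.7.0e. The deposited values are raw counts per gene from featureCounts 2.0.0, not normalized, beside the summed exon length. Strand and multi-mapping settings are not given in the sources used here. No sample column was left unassigned (0) and 0 rows lacked a gene name. Symbols were found for 99.4% of the 55471 genes.

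Genotype and replicate number came from the sample titles. Counts were fitted with edgeR 4.0.16 (R 4.3.3, filterByExpr, TMM, quasi-likelihood F-test, 13826 genes, Benjamini-Hochberg over all of them, threshold 0.05), without covariates. The fit was tested on simulated data. A log2 fold change is TCKO against WT with its SE. CPM uses TMM-scaled totals, and RPKM divides it by exon length.

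Same-numbered WT and TCKO libraries deviated together from their group means (r = 0.20, 0.21 and 0.35, each above 0.1). Replicate 1 with replicate 2 across genotypes gave 0.19 and 0.22, so the numbers set replicate 3 apart but do not separate 1 from 2. A replicate block was run as an alternative. The 18 alternatives were 2 other scalings, 2 filters, DESeq2 1.42.0 with and without the RPKM minimum of 0.24, a robust fit, the block, a batch term for replicate 3, replicates 1 and 2 summed with and without the block, replicates 1 and 2 only, and each library left out.

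The 10 genes and the 13 other lists described were chosen with earlier results of these data known. Named were all 10 genes, the paralogues, a few defining genes, up to 4 genes per direction and list with the largest fold change (adjusted p under 0.05, mean of at least 20 counts), and the 5 genes most correlated with each of 6 members. Overlaps and 75-base or 150-base shared stretches came from GENCODE M21 transcripts, and promoters from RefSeq. Some genes and 1 list that fall under these rules are not reported here.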

Additional observations from a re-analysis of the deposited data

How the results depend on the processing

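Over 18 alternatives, Cnn1 and Tpm1 passed the threshold in the same direction in every one, Acta1 and Actg2 in every one but the 2 fits with replicates 1 and 2 summed, and Tagln in every one but the summed fit without the block. With those replicates summed, 2 of the 10 genes were higher, 0 lower (adjusted p of Actg2 0.0888) and 1 higher over 2-fold. With the sum and the replicate block together, 3 were higher, 0 were lower and 1 was higher over 2-fold, with Acta1 at an adjusted p of 0.0594, Actg2 at 0.0538 and Tagln at 0.0253. Of all tested genes 1150 (8.32%) passed with the sum and block, against 386 (2.79%) with the sum alone. These fits have 2 samples per genotype and few degrees of freedom. With replicates 1 and 2 only, 7 were higher, in a fit where 45.1% of all tested genes passed in place of 17.7%. The replicate block on the 6 libraries gave 5 higher and 1 lower, Tpm2 being the call that it changed among the 10 (lost again on the summed replicates, adjusted p = 0.252). A batch term for replicate 3 changed the calls of Acta2 (edgeR adjusted p = 0.0188) and Tpm2 (0.0118) to higher. In that fit 30.9% of all tested genes passed. Leaving out 1 library gave 4 to 5 higher and 1 lower.

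The near-zero log2 fold change of Actc1 turned negative when replicates 1 and 2 were summed (-0.45), with the block as well (-0.20), and without WT replicate 1, WT replicate 2, TCKO replicate 1 or TCKO replicate 2 (range over all 6 single omissions -0.57 to 1.38). It was 1.86 with replicates 1 and 2 only (edgeR adjusted p = 0.000299). In that fit the close pairs alone set the spread, and 45.1% of all tested genes passed. Actc1 was not tested at a mean of at least 50 counts. Without division by length, the WT mean share of muscle actins was 30.4% in place of 35.2%. Of 468 counts of list genes under an alternative, 366 stayed within 1.5 times the main count and 102 did not. The level of Tagln per free exon length was added after seeing the data. The cause of these shifts was not tested. At this depth only 11 of 44 sarcomere genes could be tested, and Myocd could not.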
